A study of Homo sapiens with 13 samples.

Results

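The regions described here are 429 sites in MDA-MB-231 cells, a human breast cancer line, at which YAP, TAZ, TEAD4 and JUN peaks overlapped but the TEAD4 and JUN summits lay apart. They were chosen by peak overlap and summit position, in 4 lists of peaks from chromatin immunoprecipitation and sequencing (ChIP-seq), so these measured positions are no finding. All positions are on build hg19. Peaks overlapping by at least 1 bp were merged into 28100 regions, and 4284 of these held all 4 factors. Of these, 3533 were solitary, with no other such region within 10 kb from edge to edge. In 429 of the solitary regions (12.1%) the smallest distance between a TEAD4 and a JUN summit was over 100 bp, and these are called displaced regions. The other 3104 solitary regions, with summits 100 bp or less apart, are called close regions. Both sets come from the same cells, for which the labels name no treatment, so neither set is a control.

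The series holds 13 libraries. They are 2 replicates each for YAP, TAZ, TEAD4 and JUN, 2 rabbit IgG controls for YAP and TAZ, and 3 mouse IgG controls for TEAD4 and JUN. Each factor has 1 peak list, which the labels name for both replicates, so no value below has a spread between replicates, and the read depth is unknown here. YAP, TAZ and rabbit IgG libraries share a code in their raw-file names that the TEAD4, JUN and mouse IgG libraries lack, so factor, control and whatever that code marks cannot be told apart. Intervals are 95% intervals over regions, exact binomial (Clopper-Pearson) for shares, order-statistic for medians and Newcombe for differences between shares. They take regions as independent and cover counting error only. A difference is called where its interval leaves out 0, with no adjustment for the number of comparisons.

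YAP and TAZ are paralogous transcriptional coactivators that the Hippo kinases, when active, hold out of the nucleus. Neither binds DNA itself. TEAD4 is one of the TEAD transcription factors, which bind DNA and carry YAP or TAZ. JUN is a subunit of AP-1, a dimeric transcription factor with its own DNA motif. In breast cancer cells of this kind YAP, TAZ, TEAD and AP-1 are known to meet at enhancers. A ChIP-seq summit is the base of highest signal in a peak and serves as the estimate of where a factor contacts DNA, directly or through a partner.

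The distance that chose the displaced regions ran from 101 to 1711 bp, with a median of 241 bp, against 0 to 100 bp with a median of 24 bp in close regions. By 25-bp steps, the counts of solitary regions fell from 1554 at 0 to 24 bp to 206 at 75 to 99 bp, 107 at 100 to 124 bp and 17 at 175 to 199 bp. Beyond that they thinned slowly and unevenly, with 10 regions at 500 to 524 bp, 5 at 575 to 599 bp, 12 at 600 to 624 bp and 5 at 625 to 649 bp. There were 195 displaced regions at 101 to 200 bp, 129 at 201 to 500 bp and 105 over 500 bp, of which 24 were over 1000 bp.

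**Figure D1:**
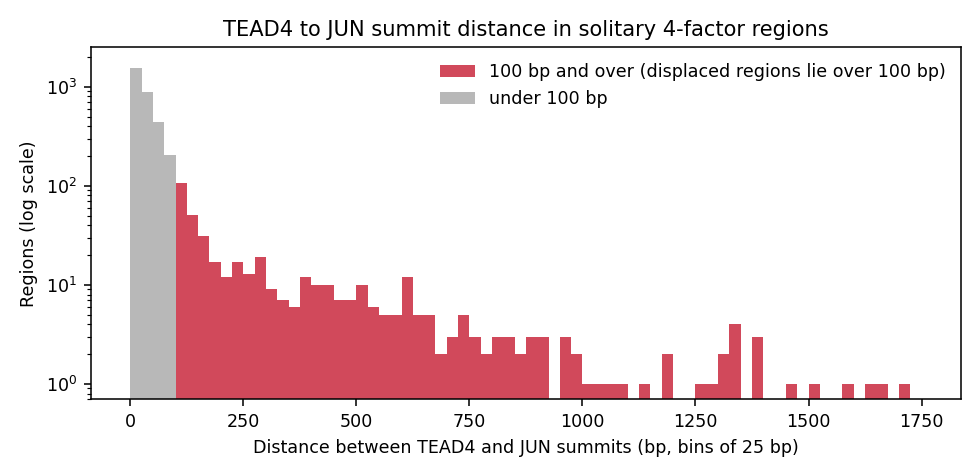
Number of solitary 4-factor regions (vertical axis, log scale) by distance between TEAD4 and JUN summits (horizontal axis, bp, bins of 25 bp). Counts fall steeply up to about 200 bp and form a long thin tail to 1711 bp.

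Just inside the threshold, 47 displaced regions lay at 101 to 110 bp, and just outside it 69 close regions lay at 91 to 100 bp. The shortest displaced distances were 101 bp in 2 regions, at chr7:129995598-129997295 and at chr3:48700815-48701889, and 102 bp in 7 regions. Of those 7, the 3 with the best mean rank of enrichment lay at chr1:55894378-55896030, chr5:126337315-126338462 and chr22:46084443-46085149. Over all 9 regions the fold enrichment over IgG, the authors' own value for each peak, ran from 5.58 to 17.0 for YAP, 5.35 to 11.8 for TEAD4 and 9.73 to 23.9 for JUN. Among close regions, 12 lay at exactly 100 bp. The 5 of these with the best mean rank of enrichment were at chr2:101740257-101742330, chr6:160181481-160182425, chr12:93957337-93958390, chr14:76114478-76115227 and chr15:39287778-39288928. Over all 12 the enrichment ran from 5.48 to 18.3 for YAP, 5.08 to 21.2 for TEAD4 and 6.56 to 23.9 for JUN.

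The displaced region ranked highest by enrichment over the 4 lists lay at chr1:19335734-19338140. Its peaks were enriched 22.1-fold for YAP, 24.3-fold for TAZ, 26.2-fold for TEAD4 and 28.3-fold for JUN. The YAP summit (19336603), the TAZ summit (19336586) and the TEAD4 summit (19336587) fell within 17 bp of each other, and the JUN summit (19337717) lay 1130 bp from TEAD4. A single JUN peak of 2407 bp covered all of them. A second, weaker YAP peak (6.07-fold) had its summit 1181 bp from TEAD4, on the side of the JUN summit and past it. The strong YAP and TAZ summits thus lay by TEAD4, and the weaker YAP summit lay closer to JUN.

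The sixth region by rank, at chr10:3803906-3806458, had a like layout. YAP (12.3-fold), TAZ (15.2-fold) and TEAD4 (19.8-fold) had summits within 23 bp of each other, and the JUN summit (25.01-fold) lay 1343 bp from TEAD4. This region held 3 TAZ peaks. The second of them, enriched 4.63-fold, had its summit 1337 bp from TEAD4, which is within 50 bp of the JUN summit. The third, enriched 5.67-fold, had its summit 1995 bp from TEAD4, well past the JUN summit.

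The second region by rank, at chr2:227342435-227343790, was enriched 19.1-fold for YAP, 27.1-fold for TAZ, 26.1-fold for TEAD4 and 24.05-fold for JUN. Its JUN summit lay 383 bp from TEAD4, with YAP 23 bp and TAZ 1 bp from TEAD4. The fourth, at chr9:114803444-114805179, had the opposite layout. YAP (22.0-fold) and TAZ (22.1-fold) lay 36 and 41 bp from the JUN summit (19.7-fold) but 219 and 224 bp from the TEAD4 summit (16.6-fold). Here TEAD4, not JUN, was the factor that stood apart. The ninth, at chr22:36025482-36026334, divided the pair: YAP lay 43 bp from JUN and TAZ 35 bp from TEAD4, 94 bp apart.

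The other 5 of the highest 10 had JUN summits 103 to 115 bp from TEAD4, and in all of them YAP and TAZ lay nearer to TEAD4. They were at chr3:159175633-159176323, chr5:1554788-1556361, chr2:235889653-235890777, chr14:89891944-89892885 and chr10:95048433-95049230. Within these 5, YAP was enriched 15.4-fold to 24.7-fold and JUN 17.8-fold to 23.6-fold.

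**Figure D2:**
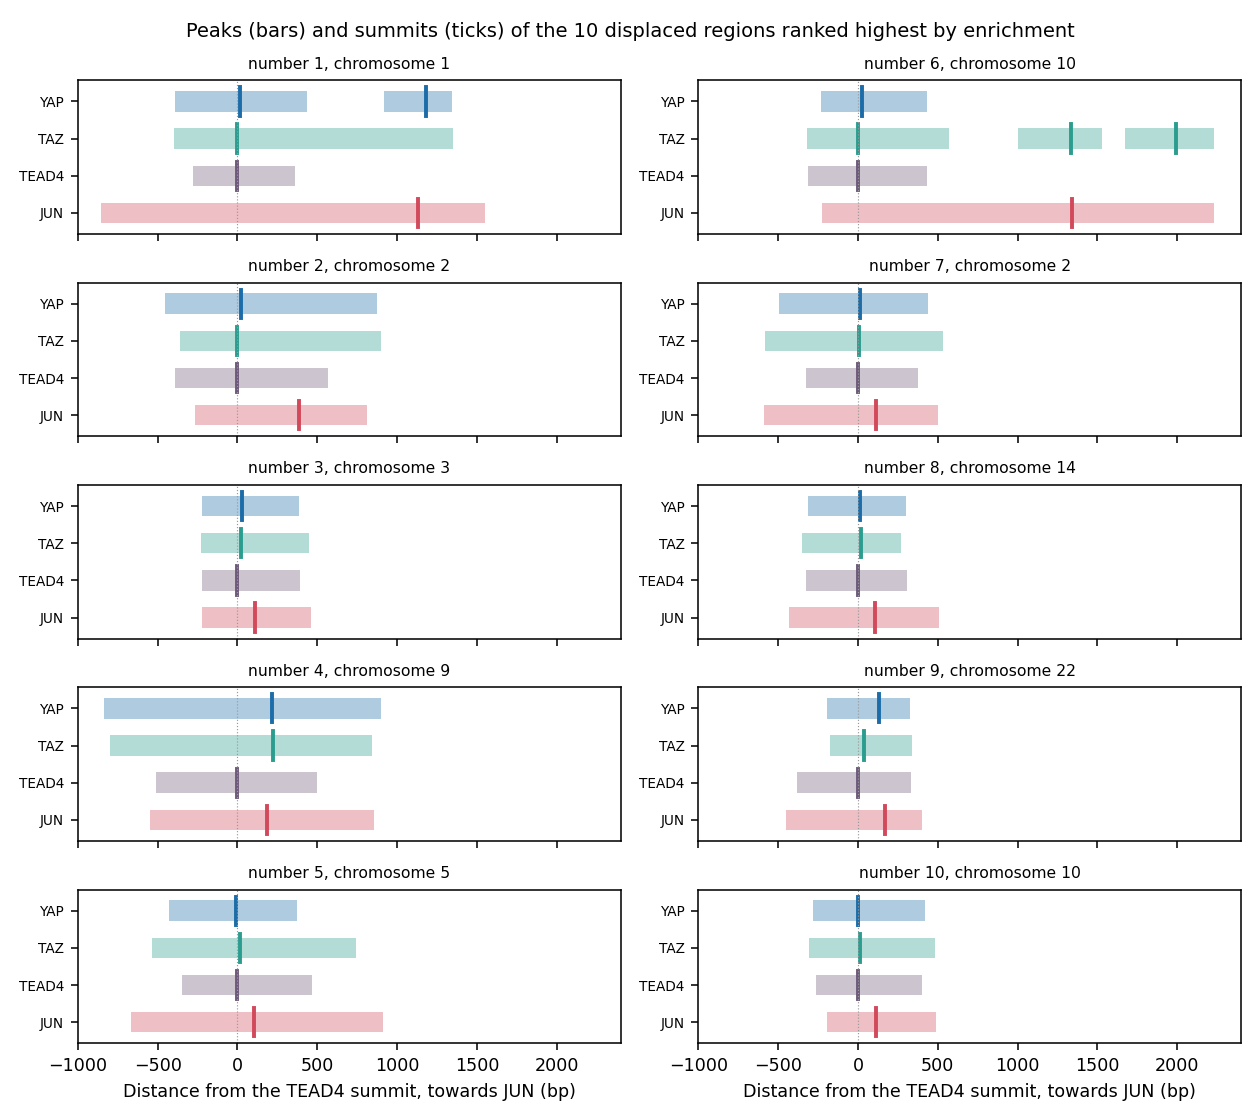
Peaks (bars) and summits (ticks) of YAP, TAZ, TEAD4 and JUN in the 10 highest-ranked displaced regions, as distance in bp from the TEAD4 summit towards JUN. In numbers 1 and 6 a second YAP or TAZ peak lies near the JUN summit, and in number 4 the YAP and TAZ summits lie at JUN.

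Across all displaced regions, the YAP and TAZ summits, which the choice of regions did not use, lay mostly on the TEAD4 side. TEAD4 was the nearer of the pair to the YAP summit in 336 of 428 regions without a tie (78.5%, 74.3 to 82.3), and to the TAZ summit in 326 of 429 (76.0%, 71.7 to 80.0). Both intervals lie above 50%. JUN peaks outnumbered TEAD4 peaks (24554 against 8406) and were wider in displaced regions (median 1126 bp against 641 bp). The part of this in the shares was not tested, so 50% is only a reference. Over all 4284 regions with 4 factors the shares were 61.0% for YAP and 60.9% for TAZ. In close regions they were 57.8% (1749 of 3024) and 58.1% (1752 of 3018). The displaced regions exceeded the close ones by 20.7 percentage points for YAP (16.2 to 24.7) and by 17.9 points for TAZ (13.3 to 22.1). Side was judged from the TEAD4 and JUN summits, whose distance chose both sets, so these differences are not independent of the choice. In close regions that distance had a median of 24 bp, and the YAP to TEAD4 distance a median of 16 bp. The YAP share was 78.6% among displaced regions with narrower YAP peaks and 78.5% with wider ones, and 74.9% with weaker and 84.5% with stronger YAP peaks.

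The side taken by YAP and TAZ differed with the distance between TEAD4 and JUN. In close regions the YAP share on the TEAD4 side was 50.1% (46.5 to 53.8) at 0 to 10 bp, 56.7% at 11 to 20 bp, 59.8% at 21 to 50 bp and 64.4% (60.6 to 68.1) at 51 to 100 bp. In displaced regions it was 75.3% (68.6 to 81.2) at 101 to 200 bp, 79.8% (71.9 to 86.4) at 201 to 500 bp and 82.9% (74.3 to 89.5) over 500 bp. The TAZ shares over the same ranges were 49.9%, 61.5%, 58.5% and 63.7% in close regions and 74.9%, 75.2% and 79.0% in displaced regions. Within the displaced regions no change with distance was detected: those over 500 bp differed from those at 101 to 200 bp by 7.60 points for YAP (-2.41 to 16.5) and by 4.18 points for TAZ (-6.19 to 13.5). How precisely a summit can be placed was not measured here, and its part in the lower shares of close regions was not tested.

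**Figure D3:**
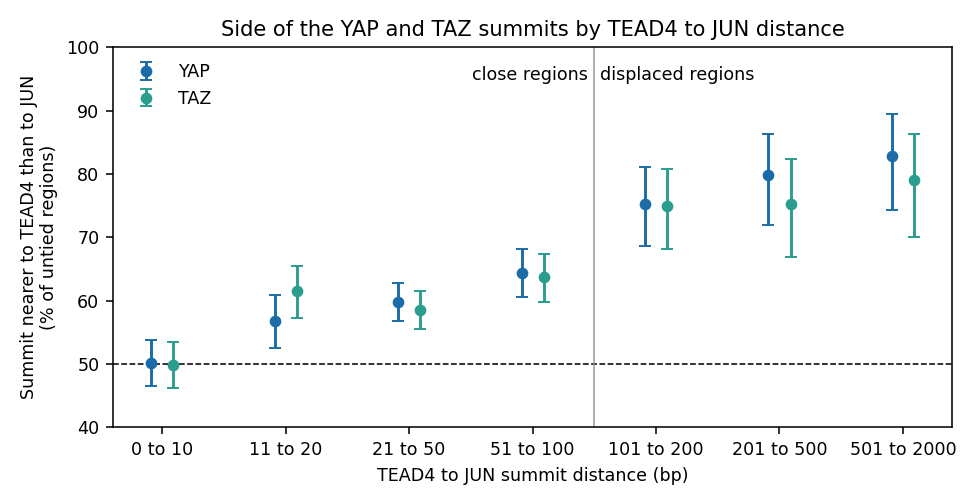
Share of regions whose YAP or TAZ summit lies nearer to TEAD4 than to JUN (vertical axis, % of untied regions, from 40%), by TEAD4 to JUN distance in bp, with exact binomial 95% intervals. Shares are near 50% at 0 to 10 bp and 74.9% to 82.9% in the displaced regions.

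The name JUN summit displaced held for most of these regions but not for all. The JUN summit was the one farthest from the median of the other 3 summits in 325 of 429 displaced regions (75.8%), and the TEAD4 summit in 90 (20.98%, 17.2 to 25.1). YAP was farthest in 5, TAZ in 8, and 1 was tied. In close regions JUN was farthest in 37.5% and TEAD4 in 22.6%. That JUN or TEAD4 should be farthest in displaced regions follows from how they were chosen. The choice does not fix which of them it was. Joining peaks by overlap can bear on it, and its part was not tested. The JUN peak covered the TEAD4 summit in 424 displaced regions, and the TEAD4 peak covered the JUN summit in 321.

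A YAP or TAZ summit within 50 bp of the TEAD4 or the JUN summit was taken to be at it. YAP was at TEAD4 in 276 displaced regions (64.3%, 59.6 to 68.9), at JUN in 75 (17.5%, 14.0 to 21.4) and between the summits in 49 (11.4%). It lay beyond TEAD4 in 24 and beyond JUN in 5. TAZ was at TEAD4 in 286 (66.7%, 62.0 to 71.1), at JUN in 79 (18.4%) and between in 44 (10.3%). The median distance to TEAD4 was 25 bp for YAP (22 to 31) and 26 bp for TAZ (22 to 31), against 156 bp and 147 bp to JUN.

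**Figure D4:**
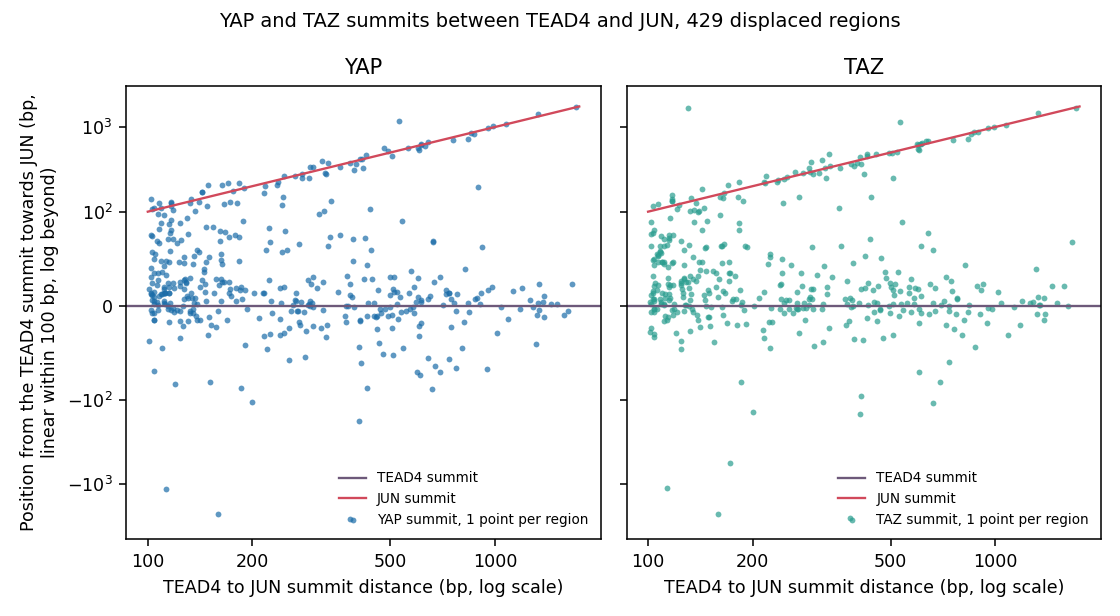
Position of the YAP (left) and TAZ (right) summit, in bp from the TEAD4 summit towards JUN (vertical axis, linear within 100 bp and log beyond), against the TEAD4 to JUN distance (horizontal axis, log scale), 1 point for each of 429 displaced regions. Most points lie along the TEAD4 line at 0, and a smaller set follows the JUN line.

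YAP and TAZ usually sat together. Both were at TEAD4 in 238 displaced regions (55.5%, 50.6 to 60.2) and both at JUN in 50 (11.7%, 8.78 to 15.1). In 31 (7.23%), 1 was at TEAD4 and 1 at JUN by the 50-bp limit. In 17 of these YAP was at TEAD4 and in 14 TAZ was. YAP and TAZ summits in these 31 lay a median of 73 bp apart, with a first quartile of 48 bp and a minimum of 8 bp. Some of these pairs were thus also within 50 bp of each other. The remaining 110 (25.6%) had at least 1 of the pair at neither summit, and in 76 of them YAP or TAZ lay between TEAD4 and JUN. Regions with 1 at each summit were mostly short, with a median TEAD4 to JUN distance of 118 bp (114 to 176). The median was 260 bp (209 to 299) where both were at TEAD4 and 226 bp (140 to 323) where both were at JUN. The short distances of regions with 1 at each follow in part from the 50-bp limit. Where TEAD4 and JUN lie little over 100 bp apart, the limits around them nearly meet. YAP and TAZ summits near each other can then fall to different summits. Such regions made up 23 of 195 at 101 to 200 bp and 3 of 105 over 500 bp.

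The clearest cases with YAP and TAZ at JUN had both summits within 20 bp of it, which held in 9 regions. By rank, the first 5 were at chr13:97908436-97909105, chr12:94446463-94447588, chr15:72520517-72521843, chr4:40992361-40993342 and chr11:110064747-110067616. The last of these also had the longest distance of all, 1711 bp, with the YAP summit on the same base as the JUN summit (110067063). It was enriched 7.35-fold for YAP, 7.69-fold for TAZ, 6.13-fold for TEAD4 and 12.5-fold for JUN. At the chromosome 4 region YAP lay 4 bp from JUN and 107 bp from TEAD4, with 20.8-fold enrichment for JUN and 5.02-fold for TEAD4.

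In 119 regions both YAP and TAZ lay within 20 bp of TEAD4. The first 5 by rank were the regions ranked 1, 5, 7 and 10 above and one at chr17:42620395-42621782. There YAP shared the base of the TEAD4 summit (42620658), TAZ lay 16 bp from it, and the JUN summit lay 378 bp away (15.2-fold for YAP, 15.3-fold for TAZ, 18.3-fold for TEAD4 and 18.7-fold for JUN). The other 4 of the 5 longest distances belonged to this kind or near it. At 1669 bp (chr17:40573233-40575663), 1626 bp (chr20:25289381-25292349), 1583 bp (chr6:44083255-44085631) and 1507 bp (chr12:107485883-107488487), YAP lay 2 to 23 bp and TAZ 0 to 68 bp from TEAD4.

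YAP and TAZ summits were within 50 bp of each other in 341 displaced regions (79.5%, 75.4 to 83.2), against 2818 close regions (90.8%) and 89.4% of all regions with 4 factors. The difference from close regions was -11.3 points (-15.5 to -7.59). Among regions with YAP enrichment above the median of solitary regions it was -4.57 points (-10.3 to -0.53). YAP and TEAD4 were within 50 bp in 64.3% of displaced and 88.3% of close regions, and in 85.3% of all regions with 4 factors (difference -24.0 points, -28.8 to -19.5). For TAZ and TEAD4 the shares were 66.7%, 88.1% and 85.4% (difference -21.4 points, -26.2 to -17.0). The TEAD4 summit enters the choice of regions through its distance to JUN, so the last 2 differences are not independent of it. The YAP and TAZ summits do not enter it, but peak width is tied to it. The YAP to TAZ difference was -10.5 points (-18.3 to -4.46) with narrower and -11.1 points (-16.2 to -6.53) with wider YAP peaks. Other ways in which the choice could bear on it were not tested.

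Regions were made by joining overlapping peaks, so overlap of their JUN and TEAD4 peaks was nearly set by the choice of regions, and the next values only describe it. The JUN peak overlapped the TEAD4 peak in 427 of 429 displaced regions, and the other 2 were joined by another peak. The JUN peak covered the TEAD4 summit in 424 (98.8%), whereas the TEAD4 peak covered the JUN summit in 321 (74.8%). At distances over 500 bp the JUN peak still covered the TEAD4 summit in 100 of 105, and the TEAD4 peak covered the JUN summit in 18. The JUN summit fell inside the YAP peak in 349 displaced regions (81.4%) and inside the TAZ peak in 362 (84.4%). Each listed peak has 1 summit, so a second JUN maximum at TEAD4 inside the same peak would not appear in the lists.

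The choice of regions also favoured peaks that reach towards the other factor, since peaks had to be joined while the TEAD4 and JUN summits lay apart. The reach of peaks is therefore given as a description, with no test. The YAP peak reached farther on the JUN side of its summit than on the other side in 302 of 424 displaced regions (71.2%) and 1764 of 3048 close regions (57.9%). For the TAZ peak the shares were 74.5% of displaced and 56.6% of close regions. The TEAD4 peak reached farther towards JUN in 334 of 428 displaced regions and 57.3% of close regions, and the JUN peak towards TEAD4 in 75.7% of displaced and 50.9% of close regions. Where YAP and TAZ were both at TEAD4, the YAP peak extended a median of 402 bp towards JUN and 284 bp away from it, and the TAZ peak 439.5 bp and 307.5 bp. Widths are tied to the choice of regions in the same way. The JUN peak had a median width of 1126 bp in displaced and 804 bp in close regions, and the YAP peak 711 bp and 586 bp.

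Displaced regions held more than 1 YAP peak more often than close regions, in 24 of 429 (5.59%) against 38 of 3104 (1.22%), a difference of 4.37 points (2.51 to 6.99). More than 1 TAZ peak was found in 20 (4.66%) against 51 (1.64%), a difference of 3.02 points (1.32 to 5.48). In 11 of the 24 displaced regions with several YAP peaks, 1 YAP summit was at TEAD4 and another at JUN (45.8%, 25.6 to 67.2). The same held for TAZ in 10 of 20. Overlapping peaks make wide regions, and the median width was 1198 bp for displaced regions, against 876.5 bp for close ones. Width is tied to the choice of regions, so these differences in peak number are not independent of it. The part of width in these counts was not tested.

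YAP and TAZ enrichment was lower at displaced than at close regions, and for JUN no difference was detected. The median YAP enrichment was 7.59-fold (7.37 to 7.84) in displaced regions and 8.36-fold (8.24 to 8.49) in close regions. For TAZ it was 8.10-fold (7.74 to 8.38) and 8.70-fold (8.53 to 8.89). The TEAD4 medians were 7.97-fold (7.55 to 8.34) and 8.34-fold (8.18 to 8.51), and the JUN medians 14.2-fold (13.6 to 15.2) and 14.3-fold (14.1 to 14.5).

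The share of regions above the median of all solitary regions gave the size of these differences. For YAP it was 37.8% of displaced and 51.7% of close regions (-13.9 points, -18.7 to -8.92). With the −log10 p in place of enrichment the YAP difference was -6.48 points (-11.4 to -1.44). For TAZ it was 42.0% and 51.1% (-9.14 points, -14.0 to -4.10), which was not called with the −log10 p (-3.57 points, -8.56 to 1.48). The TEAD4 difference was -4.63 points (-9.61 to 0.42) and was not called, but 7 of its 11 alternatives were called, between -12.4 and -5.13 points. No difference was detected for JUN (-0.117 points, -5.14 to 4.91), and its sign turned under 5 of 11 alternatives.

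Within the displaced regions, enrichment differed with the side taken by YAP and TAZ. Where both were at JUN, the TEAD4 peak had a median enrichment of 6.20-fold (5.86 to 7.01, n = 50), against 8.48-fold (7.98 to 9.07, n = 238) where both were at TEAD4. The share of TEAD4 peaks above the median of solitary regions was 10 of 50 against 127 of 238, a difference of -33.4 points (-44.1 to -18.9). YAP (6.94-fold against 7.96-fold) and TAZ (7.10-fold against 8.41-fold) were also weaker there, with differences of -22.1 points (-33.3 to -7.51) and -23.5 points (-35.1 to -8.68). JUN showed no detectable difference, at 14.8-fold against 13.7-fold (6.52 points, -8.48 to 20.97). The arrangement was read from summit positions, and the comparison was chosen with earlier results of these data known. How precisely the summit of a weaker peak can be placed was not measured here. Its part in these differences was not tested.

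**Figure D5:**
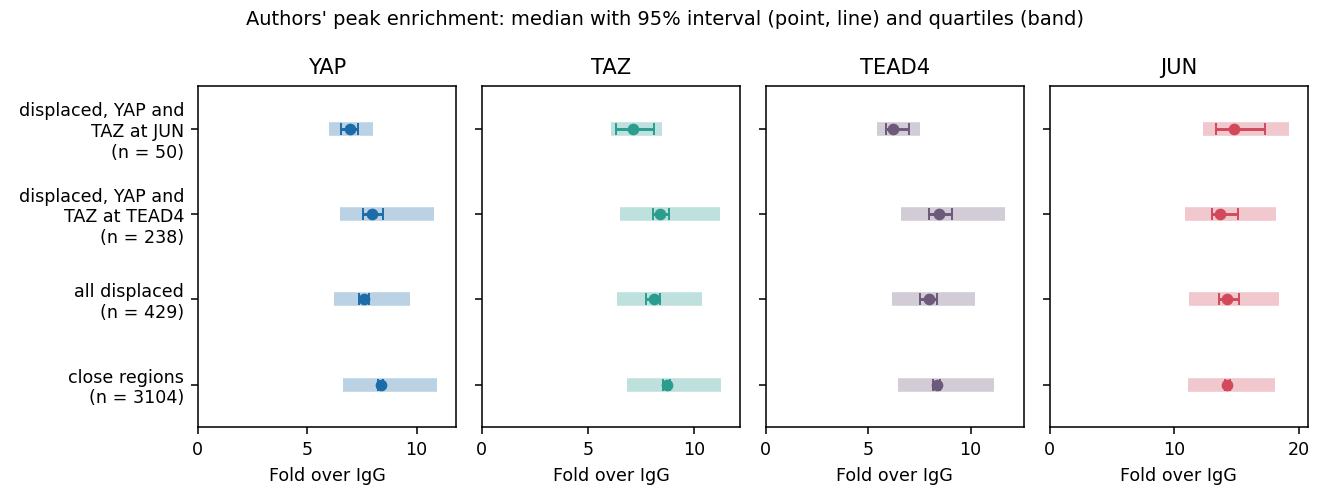
Authors' fold enrichment over IgG (horizontal axes, from 0) of YAP, TAZ, TEAD4 and JUN peaks, as median with 95% interval (point and line) and quartiles (band), in displaced regions with YAP and TAZ both at JUN, both at TEAD4, in all displaced regions and in close regions. The TEAD4 median is 6.20 where YAP and TAZ were at JUN and 8.48 where they were at TEAD4.

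Displaced regions lay on all 23 chromosomes with solitary regions. Their share of solitary regions ran from 5.56% on chromosome 22 (2 of 36, 0.68 to 18.7) to 18.9% on chromosome 20 (18 of 95, 11.6 to 28.3). It was 18.8% on chromosome 17 (25 of 133, 12.5 to 26.5) and 8.89% on chromosome 2 (24 of 270, 5.78 to 12.9). The JUN summit had the higher coordinate in 212 of 429 (49.4%, 44.6 to 54.3), an interval that holds 50%. Clustered regions with 4 factors, which have another within 10 kb, are set beside the solitary ones as a description only. Summit distance and isolation are the values that chose the regions. The TEAD4 and JUN summits lay over 100 bp apart in 12.1% of solitary and 14.6% of the 751 clustered regions, with no test.

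Any further region of the 4 lists lay within 10 kb of 219 of 429 displaced regions and 44.9% of close regions, a difference of 6.14 points (1.10 to 11.2). Another region with JUN lay within 10 kb of 193 (45.0%, 40.2 to 49.8), against 40.3% of close and 40.8% of all solitary regions. Over all regions with 4 factors the share was 51.2%, but these include the clustered ones, which all have such a neighbour by definition. The difference between displaced and close regions, 4.72 points (-0.239 to 9.75), was not called, though it was with a reach of 5 kb (7.07 points, 2.46 to 11.9). The neighbour was most often a region with JUN alone, found near 159 displaced regions (37.1%) and 33.0% of close regions (4.11 points, -0.636 to 9.05). The JUN list was also the longest, with 24554 peaks against 9798 for TAZ, 8406 for TEAD4 and 7709 for YAP. The part of list length was not tested.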

How the data were processed

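Sonicated, cross-linked chromatin of MDA-MB-231 cells was precipitated for each factor, and samples were grouped by title. The submitters' processing notes name CASAVA, Bowtie 0.12.7, SAMtools, MACS2 2.0.10 and hg19, with no roles. Per the labels, peaks of a factor were called in the irreproducible discovery rate (IDR) framework against 2 pooled IgG libraries, and the list names carry an IDR of 0.01. TAZ peak names hold a YAPTAZ tag, and JUN peak names a replicate tag that differs from the tag of the YAP, TAZ and TEAD4 lists. What these mean for the libraries behind each list is unknown here. The authors deposited for each peak a fold enrichment over IgG (a ratio) and a −log10 p-value. Start, end and summit offset, in bp, are as deposited. Counts of reads are not in the lists, so depth is unknown here.

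Merging, summit distances and intervals were computed in Python 3.11.15 with pandas 2.3.3, scipy 1.17.1 and statsmodels 0.14.6, and were tested on simulated data. TEAD4 and JUN summits are those of the closest pair in a region. YAP and TAZ summits, and enrichments, are of the most enriched peak. Named regions are the 10 with the best mean rank, the 5 longest and shortest distances (ties by mean rank), the 5 close regions at the longest distance, and 5 each with YAP and TAZ within 20 bp of JUN or of TEAD4. The regions and these rules were chosen with earlier results of these data known. No hg19 sequence or gene annotation was used here, so motifs and genes are not reported.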

Additional observations from a re-analysis of the deposited data

How the results depend on the processing

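Of 162 alternative values of 15 results, 137 kept their direction and call or stayed within their limits. The YAP share on the TEAD4 side ranged from 70.1% to 85.1% and the TAZ share from 68.6% to 83.4%, and both stayed above 50% in all 13 alternatives. With a threshold of 50 bp there were 1075 displaced regions, with 200 bp 234, and with the stronger 50% of each list 175. Those 175 had median enrichments of 9.63 (YAP), 10.2 (TAZ), 9.98 (TEAD4) and 15.7 (JUN), since weaker peaks were removed. The TEAD4 difference was called at 50 bp (-5.13 points), 200 bp (-6.85), isolation of 25 kb (-6.50), the stronger 50% (-9.36), 1 peak per list (-6.19), wider YAP peaks (-12.4) and −log10 p (-5.99). The TAZ difference was not called with −log10 p (-3.57). The JUN difference turned positive, uncalled, at 50 bp (2.23), with no isolation limit (1.17), an overlap of 100 bp (0.417), the most enriched summits (1.39) and −log10 p (3.86). Another JUN region nearby was called at 50 bp (3.87), with no isolation limit (5.72), the most enriched summits (5.92), stronger YAP peaks (8.24) and 5 kb (7.07). The causes were not tested beyond this. The 4 alternatives by YAP peak width or strength were chosen after seeing the data. The planned motif and gene alternatives, and leaving out a replicate, were not run, since no hg19 sequence was used here and each factor has 1 list. No paired analysis was possible because both replicates of a factor share 1 list. What depth limits is unknown here.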
